A study of Arabidopsis thaliana with 18 samples.

Results

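The regions described here are 870 pause windows at the 3' ends of Arabidopsis genes whose place differed after herboxidiene but not between untreated Col-0 and solvent-treated seedlings. They were chosen by window position. Of the nuclear genes in all 4 tables of paused genes, 9111 had 20 or more gene body reads in every table, and 5754 of these had Col-0 and DMSO window starts within 25 bp of each other. A member's herboxidiene window starts 100 bp or more from its DMSO window, upstream along the strand in 587 genes and downstream in 283 genes. The genes whose herboxidiene window lay within 25 bp of the DMSO window, called held windows, numbered 4234, and the other 650 moved by a distance in between.

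Plant native elongating transcript sequencing (pNET-seq) with an antibody to RNA polymerase II (Pol II) phosphorylated at serine 2 of its C-terminal domain (Ser2P) maps the 3' ends of RNA held by Pol II. The seedlings were 14 days old and fell into 4 groups, namely Col-0 treated with herboxidiene (GEX1A), Col-0 treated with its solvent DMSO, xrn3 mutants and untreated Col-0. Each had 2 libraries, which the deposited tables pool into 1 value per condition, so no spread between libraries is given and no test was made. The libraries of the mutant are called the libraries labelled xrn3, because the gene body of XRN3 itself (AT1G75660) held 9931 reads in them and 302 in Col-0, with 215 after herboxidiene and 84 after DMSO, so these reads do not check the label. Splicing values came from total RNA of herboxidiene- and DMSO-treated seedlings, with 3 libraries each, and from chromatin-bound RNA (CB-RNA) of xrn3 and Col-0, with 2 each.

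When Pol II passes the polyadenylation site (PAS), the transcript is cleaved and polyadenylated while the polymerase goes on, slows, and is later released from the DNA. Polymerases that slow or stop there accumulate as a 3' end pause. XRN3 is a nuclear exonuclease of the family that degrades the RNA left after cleavage. Herboxidiene binds the SF3B complex, a part of the U2 snRNP that recognises the branch point of introns, and so blocks assembly of active spliceosomes.

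In the deposited tables, a gene's pause window is the stretch of 50 bp that holds most reads around the PAS. The 3' end pause index (3'PI) is the read density of that window divided by the density of the gene body. Only the place and level of the densest window are listed, so a move says that another window became the densest. It does not give the level left at the old window. However, no other window scanned in that condition can have a higher 3'PI than the listed one, which bounds the old window from above.

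To show what lies at such places, the reference sequence spanning both windows is printed for the 3 members of each direction with most window reads whose span lay after the PAS and overlapped no annotated protein-coding gene. These 6 genes were picked for printable sequence, after their values were seen. Sequences run 5' to 3' on the coding strand (RefSeq, TAIR10.1 build), and capitals mark the 2 windows. In the members moved upstream, the herboxidiene window is the first block of capitals and the DMSO window is the second.
PUM3, AT2G29140, chr2:12535490-12535694, plus strand: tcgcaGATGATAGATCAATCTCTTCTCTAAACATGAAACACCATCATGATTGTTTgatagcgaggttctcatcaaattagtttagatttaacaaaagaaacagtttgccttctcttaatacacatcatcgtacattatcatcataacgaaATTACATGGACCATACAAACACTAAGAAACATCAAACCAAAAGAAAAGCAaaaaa
AT1G67325, chr1:25209195-25209369, minus strand: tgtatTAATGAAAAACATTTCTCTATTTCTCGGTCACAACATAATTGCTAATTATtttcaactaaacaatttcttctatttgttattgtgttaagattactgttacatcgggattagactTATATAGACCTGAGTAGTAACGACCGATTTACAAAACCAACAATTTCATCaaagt
AT4G23460, chr4:12243372-12243616, minus strand: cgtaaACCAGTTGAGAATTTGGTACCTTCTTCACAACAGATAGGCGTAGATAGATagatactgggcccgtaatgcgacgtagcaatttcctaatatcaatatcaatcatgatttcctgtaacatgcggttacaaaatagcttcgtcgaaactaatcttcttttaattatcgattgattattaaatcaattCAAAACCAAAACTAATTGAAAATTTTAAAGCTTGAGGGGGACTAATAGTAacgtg

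In the members moved downstream, the DMSO window is the first block of capitals and the herboxidiene window is the second.
AT2G39518, chr2:16495576-16495745, minus strand: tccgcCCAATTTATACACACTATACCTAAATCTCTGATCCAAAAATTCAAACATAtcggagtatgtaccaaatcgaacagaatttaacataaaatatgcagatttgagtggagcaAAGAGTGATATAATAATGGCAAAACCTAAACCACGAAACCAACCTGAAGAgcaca
FLA18, AT3G11700, chr3:3701534-3701753, plus strand: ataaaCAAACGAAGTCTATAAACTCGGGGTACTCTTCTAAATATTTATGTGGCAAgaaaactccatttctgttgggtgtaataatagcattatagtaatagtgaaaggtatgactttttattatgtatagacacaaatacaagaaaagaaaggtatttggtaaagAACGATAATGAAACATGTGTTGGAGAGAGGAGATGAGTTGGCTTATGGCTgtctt
SDP1, AT5G04040, chr5:1093210-1093374, plus strand: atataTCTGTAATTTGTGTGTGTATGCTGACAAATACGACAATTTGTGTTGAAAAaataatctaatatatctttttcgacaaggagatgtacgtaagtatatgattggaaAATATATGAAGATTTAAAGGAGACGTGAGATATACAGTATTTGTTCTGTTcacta

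PUM3 encodes an RNA-binding protein of the Pumilio family. Its window was centred 120.5 bp after the PAS with 20 reads after herboxidiene, against 265.5 bp with 24 reads after DMSO. The windows of the libraries labelled xrn3 and of Col-0 were centred 255.5 and 265.5 bp after the PAS, with 315 and 151 reads. The DMSO window of PUM3 is rich in adenine, with 28 of its 50 bases, against 17 in the herboxidiene window. FLA18, which encodes a fasciclin-like arabinogalactan protein of the cell surface, moved the other way. Its window was centred 230.5 bp after the PAS with 84 reads after herboxidiene, against 70.5 bp with 56 reads after DMSO, and it lay at 70.5 bp in both other conditions.

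The members were 15.1% of the 5754 genes with agreeing Col-0 and DMSO windows. An upstream move was seen in 10.2% of these genes and a downstream move in 4.92%, so 67.5% of the members moved upstream. The herboxidiene window was also 100 bp or more from the Col-0 window in 849 of the 870 members. This is largely fixed by the choice of members, whose Col-0 window lies within 25 bp of the DMSO window. Moved windows were also counted with each other condition as the odd one out. These counts share tables and are set side by side only. With DMSO as the odd one, 405 of 5093 genes (7.95%) whose herboxidiene and Col-0 windows agreed had a DMSO window 100 bp or more away, 57.3% of them upstream. With the libraries labelled xrn3 as the odd ones, 179 of 5754 genes (3.11%) had moved, 44.1% of them upstream. With Col-0 as the odd one, 256 of 6029 genes (4.25%) had moved, 53.9% of them upstream.

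**Figure D1:**
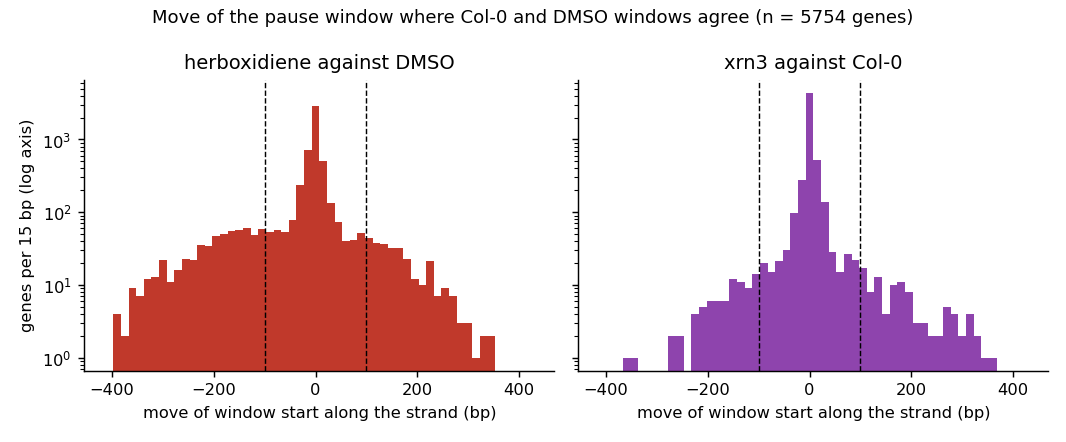
The x axis gives the move of the window start in bp along the strand, negative for upstream, and the log y axis gives genes per 15 bp, for herboxidiene against DMSO (left) and the libraries labelled xrn3 against Col-0 (right), over the same 5754 genes. Dashed lines mark 100 bp on either side, beyond which lie 587 upstream and 283 downstream genes on the left and 79 and 100 genes on the right.

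The conditions differ in depth, and the moved windows rested on few reads. Over the 9111 genes, gene bodies held 3111453 reads after herboxidiene and 2867161 after DMSO, against 15558837 in the libraries labelled xrn3 and 7835652 in Col-0. The windows of the members moved upstream held a median of 12 reads after herboxidiene and 19 after DMSO, and those moved downstream a median of 13 and 20. Held windows had a median of 21 reads after herboxidiene and 33 after DMSO. The herboxidiene window had under 10 reads in 240 of the 587 upstream members, in 104 of the 283 downstream members and in 794 of the 4234 held windows.

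The share of moved windows was higher where the windows held fewer reads. Taking the smaller of the herboxidiene and DMSO window counts, 16.3% of the genes with 5 to 9 reads moved upstream and 7.43% downstream. Of the genes with 20 to 49 reads, 6.54% moved upstream and 3.80% downstream. With 100 reads or more, 9 of 372 genes (2.42%) moved upstream and 10 (2.69%) downstream. The part of window depth in the moves was not tested. A minimum on the window itself was chosen after the data were seen. When each of the 4 windows had to hold at least 20 reads, 141 genes moved upstream and 82 downstream, together 8.83% of 2526 genes. Under the same minimum, DMSO was the odd one in 4.60% of 2367 genes, the libraries labelled xrn3 in 2.73% of 2526 and Col-0 in 3.14% of 2615. With at least 50 reads in every window, the shares were 6.15% for herboxidiene, 2.92% for DMSO, 2.63% for the libraries labelled xrn3 and 3.18% for Col-0. The upstream share of the moved windows was 64.3% for herboxidiene and 50% for DMSO at that minimum, from 56 and 26 genes.

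**Figure D2:**
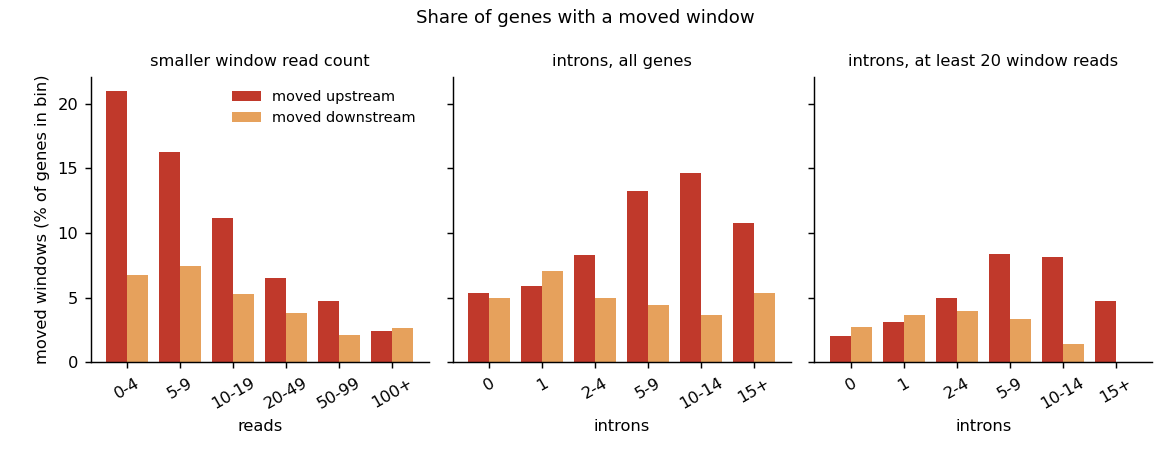
Bars give the percentage of genes in each bin whose herboxidiene window moved upstream (red) or downstream (orange), by the smaller window read count (left), by intron number (middle) and by intron number with at least 20 reads in the herboxidiene and DMSO windows (right). The upstream share was 21.0% in the bin of lowest reads and 2.42% in that of highest, and 5.33% in intronless genes against 14.7% in genes with 10 to 14 introns.

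Window position chose the members and is described without a test. In the members moved upstream, the herboxidiene window was centred a median of 65.5 bp before the PAS (-65.5 bp, quartiles -105.5 and 4.5 bp), against 139.5 bp after it in DMSO (quartiles 84.5 and 210 bp). The herboxidiene window was centred before the PAS in 437 of these 587 genes, and the DMSO window in 6. The median size of the move was 175 bp, and 225 members moved by 200 bp or more. In the members moved downstream, the herboxidiene window was centred a median of 190.5 bp after the PAS (quartiles 152.5 and 234.5 bp), against 34.5 bp in DMSO (quartiles -18 and 70 bp). The median size of the move was 155 bp, and 69 of the 283 members moved by 200 bp or more. Because only a fixed region around the PAS was searched, the DMSO position limits the moves that are possible. Where the DMSO window was centred 200 to 299 bp after the PAS, 158 of 583 genes (27.1%) moved upstream and 0 downstream. Where it was centred before the PAS, 6 of 889 genes moved upstream and 98 (11.0%) downstream. Between 50 and 99 bp after the PAS, where both moves fit into the region, 126 of 1504 genes (8.38%) moved upstream and 74 (4.92%) downstream. In this bin with at least 20 reads in the herboxidiene and DMSO windows, the counts were 26 and 21 of 672 genes.

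**Figure D3:**
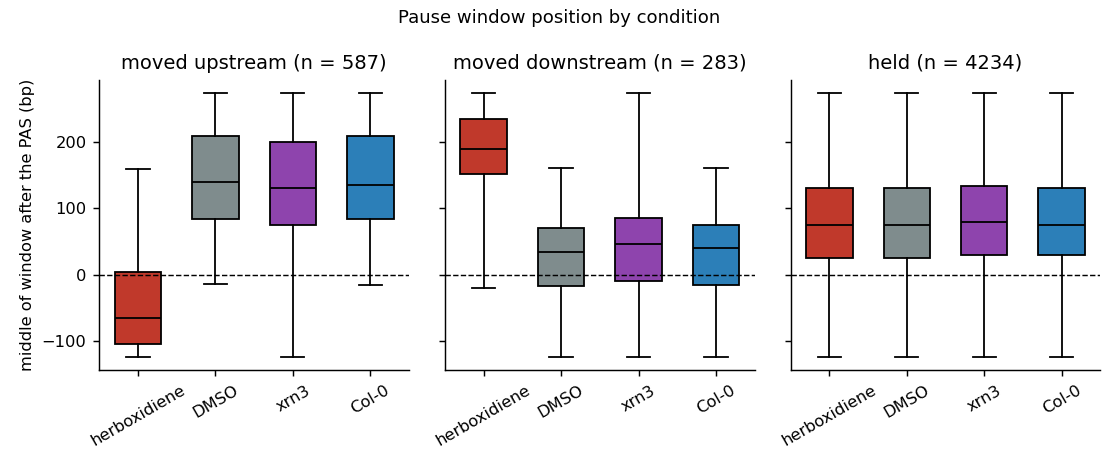
Boxes give the median and quartiles, and whiskers the full range, of the middle of the pause window after the PAS (y axis, bp) in each condition, for members moved upstream, members moved downstream and held windows. The herboxidiene box sits lowest in the first panel (median -65.5 bp) and highest in the second (190.5 bp), as the choice of members fixes, while the libraries labelled xrn3 have medians of 130.5 and 45.5 bp, near Col-0 at 135.5 and 39.5 bp.

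The position in the libraries labelled xrn3 was not used by the choice of members. It lay within 25 bp of the Col-0 window in 510 of 587 upstream members (86.9%) and in 236 of 283 downstream members (83.4%). The share was 94.2% in held windows, 91.8% over the 5754 genes with agreeing Col-0 and DMSO windows and 82.9% over all 9111 genes. The window of the libraries labelled xrn3 lay within 25 bp of the herboxidiene window in 25 upstream members (4.26%) and 20 downstream members (7.07%). For this the share was 92.8% in held windows, 71.6% over the 5754 genes and 58.4% over all genes. The low share in the members is largely fixed by their choice, as their herboxidiene window lies far from that of DMSO and so of Col-0. The Col-0 windows of the members held fewer reads, with a median of 131 in both directions against 190.5 in held windows, and the part of this difference was not tested. The libraries labelled xrn3 had a 3'PI at least 2-fold that of Col-0 in 2 upstream and 3 downstream members, against 0.867% of all genes, and at least 2-fold lower in 5 and 1, against 0.757%. The median log2 ratio of the libraries labelled xrn3 to Col-0 was 0.17 in upstream members, 0.22 in downstream members and 0.18 in held windows.

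The 3'PI of upstream members had a median of 6.12 after herboxidiene and 11.5 after DMSO, and of 28.0 in the libraries labelled xrn3 and 24.8 in Col-0. In downstream members the medians were 6.22 after herboxidiene, 9.27 after DMSO, 20.02 in the libraries labelled xrn3 and 17.9 in Col-0. Held windows had medians of 7.41, 12.4, 25.7 and 23.1 in the same order. The ratio of herboxidiene to DMSO comes from the contrast that chose the members and is given as a description. Its median on the log2 scale was -0.85 in upstream members (quartiles -1.49 and -0.20), -0.23 in downstream members (quartiles -1.08 and 0.18), -0.45 in held windows and -0.44 over all 9111 genes. With at least 20 reads in each of the 4 windows it was -0.50 upstream, -0.042 downstream and -0.25 in held windows. At 50 reads it was -0.44 in 36 upstream members and -0.09 in held windows, while in 20 downstream members the sign turned, to 0.054. It was at least 2-fold lower after herboxidiene in 260 of 587 upstream members (44.3%) and in 73 of 283 downstream members (25.8%), beside 30.3% of all genes. A 3'PI at least 2-fold higher was found in 9 upstream and 5 downstream members, beside 2.62% of all genes. All genes here are the 9111, each listed as paused in all 4 conditions. Nuclear genes listed as paused numbered 12663 after herboxidiene and 14999 after DMSO. Genes not listed after herboxidiene are absent from these shares and from those of the intervals below.

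For each gene, a 95% counting interval of the 3'PI was made from the exact Clopper-Pearson interval of the window's share of window and gene body reads. It covers counting error only and does not include the choice of the densest window. The herboxidiene interval lay wholly below the DMSO interval in 122 upstream (20.8%) and 36 downstream members (12.7%), beside 21.8% of held windows and 17.7% of all genes. It lay wholly above the DMSO interval in 2 upstream (0.341%) and 2 downstream members (0.707%), beside 1.70% of held windows and 1.26% of all genes. The 3'PI was lower after herboxidiene in 476 upstream (81.1%) and 184 downstream members (65.0%), beside 70.1% of held windows and 69.4% of all genes. In these members the density at the old window, relative to the gene body, was lower by at least the listed ratio. The 3'PI was higher in 111 upstream (18.9%) and 98 downstream members (34.6%), beside 29.5% of held windows and 30.3% of all genes. There the new window had gained at least the listed ratio over its own level in DMSO.

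**Figure D4:**
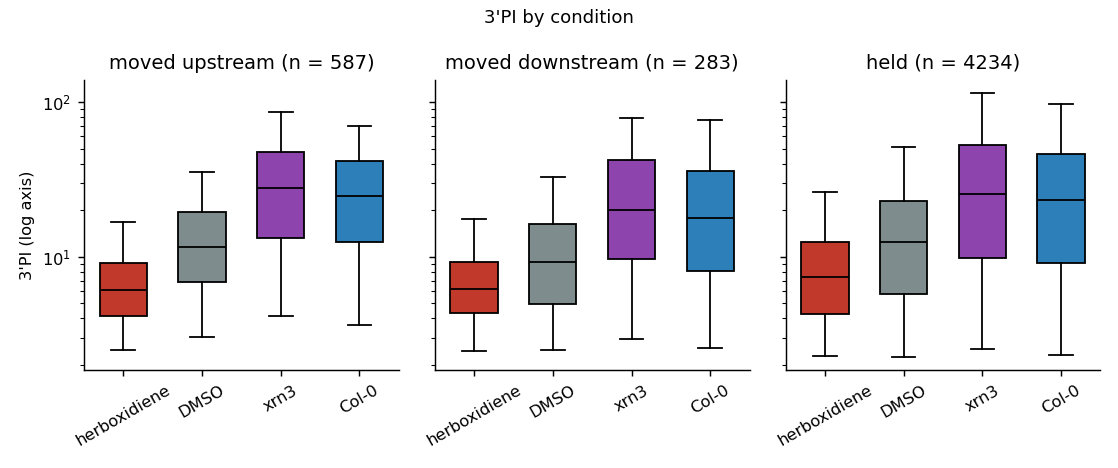
Boxes give the median and quartiles, and whiskers the 5th to 95th percentile, of the 3'PI (log y axis) in each condition for members moved upstream, members moved downstream and held windows. The herboxidiene medians are 6.12, 6.22 and 7.41, each below the DMSO medians of 11.5, 9.27 and 12.4 in the same panel.

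Among the upstream members with most window reads, TPS8 (AT1G70290, chromosome 1, 26471078 to 26474786, minus strand), a member of the trehalose-6-phosphate synthase family, had 324 window reads after herboxidiene and 270 after DMSO. Its 3'PI was 2.25 after herboxidiene (interval 2.01 to 2.52) and 2.30 after DMSO (2.03 to 2.60), with 2.36 in the libraries labelled xrn3 and 2.50 in Col-0. The window was centred at -85.5 bp after herboxidiene, against 29.5 bp in each of the other conditions, so its place differed while the intervals of its level overlapped. NUDT8 (AT5G47240, chromosome 5, 19183601 to 19185644, plus strand), a nudix hydrolase, had 530 window reads after herboxidiene and 204 after DMSO. NUDT8 had a 3'PI of 2.83 after herboxidiene and 2.52 after DMSO, with 5.60 in the libraries labelled xrn3 and 5.14 in Col-0. The intervals of NUDT8, 2.58 to 3.09 and 2.18 to 2.91, overlapped.

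MPK17 (AT2G01450), a MAP kinase, had a window of 172 reads centred at -95.5 bp after herboxidiene, against 166 reads at 134.5 bp after DMSO. Its 3'PI was 8.77 (interval 7.43 to 10.3) after herboxidiene and 14.5 (12.1 to 17.1) after DMSO, with 17.5 in the libraries labelled xrn3 and 10.4 in Col-0. The herboxidiene and DMSO intervals of MPK17 did not overlap, although the Col-0 value was nearer to that of herboxidiene. KING1 (AT3G48530), the gamma-type regulatory subunit of the SNF1-related kinase that senses energy status, was among the members whose windows both lay after the annotated end. Its window held 229 reads at 35.5 bp after herboxidiene, against 156 reads at 195.5 bp after DMSO, and it lay at 195.5 bp in both other conditions. The 3'PI of KING1 was 4.31 (3.75 to 4.94) after herboxidiene and 3.09 (2.61 to 3.64) after DMSO, which was a separation upwards. It was 12.1 in the libraries labelled xrn3 and 10.4 in Col-0.

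APX1 (AT1G07890), the cytosolic ascorbate peroxidase that removes hydrogen peroxide, had its window at -119.5 bp with 153 reads after herboxidiene, against 195.5 bp with 224 reads after DMSO. APX1 had a 3'PI of 1.65 after herboxidiene, 1.92 after DMSO, 2.70 in the libraries labelled xrn3 and 2.24 in Col-0. The other upstream members of this kind were AT4G17900 (a PLATZ transcription factor), AT5G01750 (a LURP-one-like protein) and AT5G55970 (a RING/U-box protein). Their 3'PI was 3.93, 1.86 and 1.94 after herboxidiene and 4.88, 1.74 and 1.39 after DMSO. CESA6 (AT5G64740), a cellulose synthase of the primary cell wall with 12 introns, had a window of 105 reads at -124.5 bp after herboxidiene, against 152 reads at 155.5 bp after DMSO. Its 3'PI was 6.96 (interval 5.65 to 8.48) after herboxidiene and 14.1 (11.8 to 16.7) after DMSO. AT4G30490, an AFG1-like ATPase with 13 introns, had a 3'PI of 3.11 after herboxidiene and 6.54 after DMSO.

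Of the 8 upstream members with most window reads, MPK17 alone had a 3'PI above the upstream median after herboxidiene. The lowest 3'PI values after herboxidiene relative to DMSO among upstream members with at least 100 gene body reads after each treatment were at NAD-ME1 (AT2G13560), a mitochondrial malic enzyme, at AT3G61420, a BSD domain protein, and at AT5G12350, an RCC1 family protein with a FYVE domain. The 3'PI of NAD-ME1 was 2.18 after herboxidiene and 30.5 after DMSO (log2 ratio -3.80), with 86.8 in the libraries labelled xrn3 and 62.3 in Col-0. Its window held 10 reads at 90.5 bp after herboxidiene, against 47 reads at 225.5 bp after DMSO, while the gene body held 463 and 156 reads. No window of NAD-ME1 therefore kept a 3'PI above 2.18 after herboxidiene. AT3G61420 had a 3'PI of 2.98 after herboxidiene and 32.0 after DMSO, and AT5G12350 of 3.13 and 28.9. The herboxidiene windows of these held 15 and 17 reads.

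Within the same limit of gene body reads, the highest ratios among upstream members were at SCAR2, CPR1 and DRT112. SCAR2 (AT2G38440), a subunit of the SCAR/WAVE complex that acts on actin, had a 3'PI of 14.5 from 34 window reads after herboxidiene, against 5.82 from 13 reads after DMSO. Its intervals, 9.81 to 20.7 and 3.05 to 10.13, overlapped. CPR1 (AT4G12560), an F-box protein that limits immune receptor levels, had a 3'PI of 6.22 after herboxidiene and 3 after DMSO. DRT112 (AT1G20340), a plastocyanin that carries electrons in photosynthesis and has no intron, had a 3'PI of 3.47 after herboxidiene and 1.91 after DMSO. Its window was centred 59.5 bp after the PAS both after herboxidiene and in the libraries labelled xrn3, against 254.5 bp in DMSO and 274.5 bp in Col-0. DRT112 is thus 1 of the 25 upstream members whose herboxidiene place was shared by the libraries labelled xrn3.

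LTPG1 (AT1G27950), a lipid transfer protein with 1 intron, had a 3'PI of 3.08 after herboxidiene and 3.36 after DMSO. The farthest upstream move, 395 bp, was at MEMB11 (AT2G36900), a membrin of the Golgi. Its window held 14 reads after herboxidiene and 29 after DMSO, so the place rests on few reads. JAC1 (AT1G75100), a J-domain protein needed for chloroplast accumulation towards light, moved by 230 bp upstream. Its window held 12 reads at -110.5 bp after herboxidiene, against 24 reads at 119.5 bp after DMSO, and the Col-0 window held 414 reads at 114.5 bp. The 3'PI of JAC1 was 6.26 (interval 3.13 to 11.4) after herboxidiene and 14.8 (9.01 to 23.5) after DMSO, and these intervals overlapped.

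**Figure D5:**
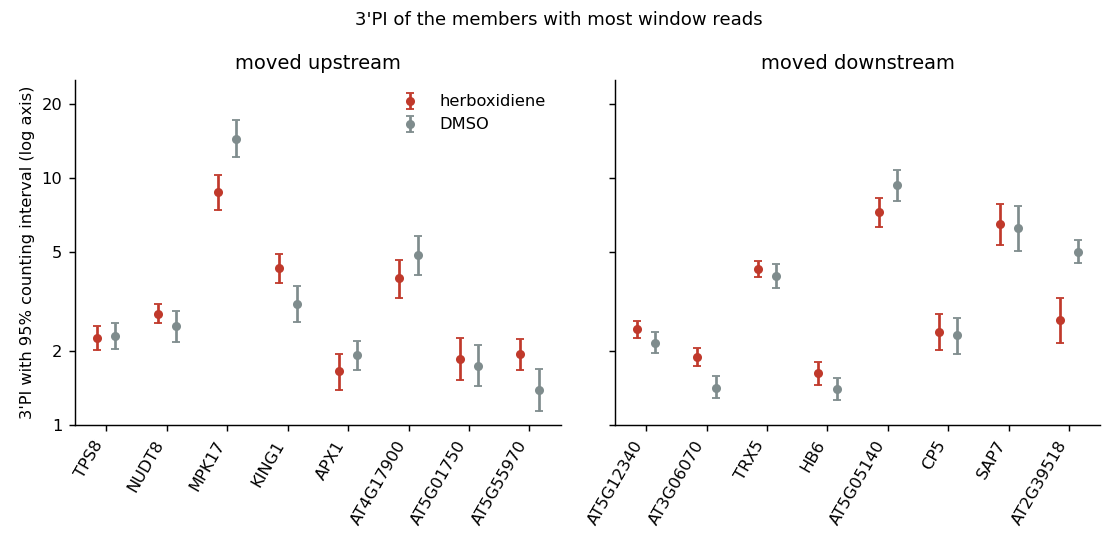
Points give the 3'PI (log y axis) after herboxidiene (red) and DMSO (grey) for the 8 upstream and 8 downstream members with most window reads, and bars the 95% counting interval of the pooled libraries. Among upstream members MPK17 is at 8.77 against 14.5 and KING1 at 4.31 against 3.09, while among downstream members AT2G39518 is at 2.67 against 5.04.

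Among the downstream members, AT5G12340, a DUF4228 protein without introns, had the most reads. Its windows held 920 reads after herboxidiene and 553 after DMSO, against 31 in the libraries labelled xrn3 and 27 in Col-0, where its gene body was also low. Its gene body held 2738 reads after herboxidiene and 1855 after DMSO, against 114 in the libraries labelled xrn3 and 94 in Col-0. The 3'PI of AT5G12340 was 2.44 after herboxidiene, 2.16 after DMSO, 1.97 in the libraries labelled xrn3 and 2.09 in Col-0. Both its herboxidiene and DMSO windows were centred in the coding exon, at -20.5 and -120.5 bp. AT3G06070, an uncharacterised protein, had a window of 642 reads at 199.5 bp after herboxidiene, against 429 reads at 49.5 bp after DMSO. Its 3'PI was 1.88 (interval 1.73 to 2.05) after herboxidiene and 1.42 (1.29 to 1.58) after DMSO, which did not overlap.

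TRX5 (AT1G45145), a thioredoxin h that reduces disulfide bonds, had a window of 866 reads at 54.5 bp after herboxidiene, against 378 reads at -120.5 bp after DMSO. Its 3'PI was 4.29 after herboxidiene and 4.03 after DMSO, with 3.85 in the libraries labelled xrn3 and 3.11 in Col-0. HB6 (AT2G22430), a homeobox transcription factor of abscisic acid responses, had a 3'PI of 1.62 after herboxidiene and 1.40 after DMSO. The windows of HB6 lay on opposite sides of the PAS, at 84.5 bp after herboxidiene and -80.5 bp after DMSO. AT5G05140, which encodes a protein of the TFIIS elongation factor family, had a window of 251 reads at 260.5 bp after herboxidiene, against 218 reads at 85.5 bp after DMSO. AT5G05140 had a 3'PI of 7.29 after herboxidiene, 9.34 after DMSO, 22.2 in the libraries labelled xrn3 and 18.4 in Col-0.

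CP5 (AT1G64720), a lipid transport protein, and SAP7 (AT4G12040), an A20/AN1 zinc finger protein, had nearly the same 3'PI in both treatments, at 2.39 and 6.52 after herboxidiene and 2.31 and 6.26 after DMSO. AT2G39518, whose sequence is printed above, had a 3'PI of 2.67 (interval 2.15 to 3.28) after herboxidiene and 5.04 (4.51 to 5.61) after DMSO, from 106 and 437 window reads. Its window in the libraries labelled xrn3 stood apart, at 49.5 bp, against 269.5 bp after herboxidiene and 159.5 bp in DMSO and Col-0. Of the 8 downstream members with most window reads, AT2G39518 and AT3G06070 had intervals that did not overlap between treatments, the one lower and the other higher after herboxidiene.

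Among downstream members with at least 100 gene body reads after each treatment, the lowest ratios were at AT5G04830 (an NTF2 family protein), AT3G53270 (a SNAP43 subunit of the snRNA activating complex) and AT3G09100 (an mRNA capping enzyme family protein). AT5G04830 had a 3'PI of 2.63 from 13 window reads after herboxidiene, against 21.1 from 94 reads after DMSO. AT3G53270 had 2.43 and AT3G09100 2.63 after herboxidiene, against 18.5 and 18.1 after DMSO. The herboxidiene window of AT3G09100 overlapped another annotated gene on the same strand. The highest ratios within this limit were at AT5G66090, AT1G06650 (a 2-oxoglutarate-dependent oxygenase) and AT5G40880 (a WD-40 repeat protein), with 3'PIs of 5.45, 3.58 and 6.78 after herboxidiene and 2.60, 1.94 and 3.75 after DMSO. The window of AT5G66090 after herboxidiene also overlapped a same-strand neighbour.

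ADT5 (AT5G22630), an arogenate dehydratase of phenylalanine synthesis without introns, had a 3'PI of 3.38 after herboxidiene and 3.54 after DMSO. Its window lay at 175.5 bp after herboxidiene and at 160.5 bp in the libraries labelled xrn3, against -124.5 bp in DMSO and Col-0. HA2 (AT4G30190), a proton pump of the plasma membrane with 13 introns, had a 3'PI of 6.23 after herboxidiene, 5.07 after DMSO, 2.58 in the libraries labelled xrn3 and 2.16 in Col-0. UBP23 (AT5G57990), a ubiquitin-specific protease with 9 introns, had a 3'PI of 5.73 after herboxidiene and 9.39 after DMSO, with 54.3 in the libraries labelled xrn3 and 34.8 in Col-0. The farthest downstream move, 345 bp, was at EXO70D3 (AT3G14090), an exocyst subunit, from 13 window reads after herboxidiene and 8 after DMSO.

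Intron number was not used to choose the members. Upstream members had a median of 6 introns (quartiles 3 and 10) and downstream members a median of 4 (quartiles 1 and 8), against 4 in held windows (quartiles 2 and 8) and 5 over all genes. Intronless genes made up 28 of the 587 upstream members (4.77%) and 26 of the 283 downstream members (9.19%), against 10.01% of held windows and 8.69% of all genes. Genes with 10 or more introns made up 25.2% of upstream members and 16.6% of downstream members, against 18.1% of held windows and 19.7% of all genes. Gene length had medians of 2614 bp in upstream members, 2444 bp in downstream members and 2428 bp in held windows.

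Read the other way, 5.33% of 525 intronless genes with agreeing Col-0 and DMSO windows moved upstream, 13.2% of 1738 genes with 5 to 9 introns, 14.7% of 737 genes with 10 to 14 introns and 10.8% of 372 genes with 15 or more. The downstream share lay between 3.66% and 5.38% in the same bins. Among 696 genes with 1 intron, 5.89% moved upstream and 7.04% downstream, and among 1686 with 2 to 4 introns 8.30% and 4.98%. With at least 20 reads in the herboxidiene and DMSO windows, 6 of 295 intronless genes (2.03%) moved upstream, 58 of 691 genes with 5 to 9 introns (8.39%), 17 of 209 with 10 to 14 (8.13%) and 4 of 85 with 15 or more (4.71%). Where the DMSO window was centred 100 bp or more after the PAS, which leaves room for an upstream move, the upstream share was 8.70% in 230 intronless genes, 22.4% both in 686 genes with 5 to 9 introns and in 322 with 10 to 14, and 14.8% in 176 with 15 or more. In each of these 3 comparisons the upstream share was lowest in intronless genes, and it was lower in genes with 15 or more introns than in those with 5 to 14. With under 20 reads in the herboxidiene or DMSO window, intronless genes were not lowest. There the upstream share was 9.57% in 230 intronless genes and 9.29% in 312 with 1 intron. It was 16.4% in 1047 genes with 5 to 9 introns, 17.2% in 528 with 10 to 14 and 12.5% in 287 with 15 or more. No test was made over genes.

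In most members, intronic reads were higher relative to exonic reads in total RNA after herboxidiene, as in most genes. The splice site (SS) ratio is the number of intronic reads next to splice sites over the exonic reads there, here summed over the introns of a gene, with at least 20 exonic reads in both treatments. It was at least 2-fold higher after herboxidiene in 328 of 407 upstream members (80.6%) and 158 of 195 downstream members (81.0%), against 83.5% of 6398 genes. The median ratio was 0.213 after herboxidiene and 0.0528 after DMSO in upstream members, and 0.271 and 0.0670 in downstream members. The median log2 change was 1.84 in upstream members and 2.03 in downstream members, against 2.12 in held windows. With at least 20 reads in each of the 4 windows it was 2.25, 2.59 and 2.40 in the same order. At 50 reads it was 2.74, 2.42 and 2.65, from 35, 18 and 678 genes. Downstream members were thus above held windows at 20 reads and below them at 50. For the last intron alone the median log2 change was 1.81 in upstream members, 2.29 in downstream members and 2.28 in held windows. A last intron at least 2-fold higher was found in 278 of 403 upstream members (69.0%) and 144 of 191 downstream members (75.4%), against 74.7% of 6309 genes.

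Single members spanned this range. NUDT8 had a summed SS ratio of 0.759 after herboxidiene and 0.0424 after DMSO, and TPS8 of 0.698 and 0.0441. JAC1 had 0.0800 after herboxidiene and 0.0450 after DMSO, a change below 2-fold. AT5G04830, named above for its low 3'PI ratio, had 0.0335 after herboxidiene and 0.0456 after DMSO. In CB-RNA the SS ratio of the libraries labelled xrn3 to Col-0 had a median log2 change of -0.36 in upstream members, -0.41 in downstream members and -0.42 in held windows.

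The annotated place of the windows follows their position. The herboxidiene window of upstream members was centred in an untranslated exon in 484 of 587 genes (82.5%), in a coding exon in 34 and in an intron in 7, and after the annotated end in 60. Over the herboxidiene windows of all genes, these shares were 45.8%, 1.60%, 0.461% and 51.7% in the same order. The DMSO window of upstream members was centred after the annotated end in 434 (73.9%), against 55.7% of the DMSO windows of all genes. In downstream members, the herboxidiene window was centred after the annotated end in 247 of 283 genes (87.3%), against 113 (39.9%) for the DMSO window. It overlapped another annotated gene on the same strand in 71 of 283 genes (25.1%), against 25 (8.83%) for the DMSO window of the same genes and 6.92% of held herboxidiene windows. In such genes the reads of the window can come from the neighbour, and the part of this was not tested. When genes with another gene within 300 bp after the PAS were left out, 271 members moved upstream and 107 downstream.

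The letters of the windows also differed with place. On the coding strand, the herboxidiene windows of upstream members held 35.9% T and 30.7% A on average, against 30.1% T and 35.0% A in their DMSO windows. The letters TGTA, the DNA form of a motif found upstream of many poly(A) sites, stood on the coding strand in 242 of the 587 herboxidiene windows (41.2%) and in 112 of the DMSO windows (19.1%), against 26.9% of the herboxidiene windows of all genes. On the other strand it stood in 22.0% and 27.8%. Of the 437 herboxidiene windows centred before the PAS, 48.7% held TGTA on the coding strand, against 35.9% of the 699 held windows before the PAS. These held windows were centred nearer to the PAS, at a median of -49.5 bp against -89.5 bp. The letters TTTTTT stood on the coding strand in 9.20% of upstream members' herboxidiene windows and 4.43% of their DMSO windows, against 5.03% of the herboxidiene windows of all genes. AATAAA, the canonical poly(A) signal, stood in 3.92% and 6.98%, against 6.15%. On the other strand, TTTTTT stood in 6.98% and 8.18% and AATAAA in 5.79% and 3.07%. In downstream members TGTA stood on the coding strand in 18.4% of herboxidiene windows and 23.3% of DMSO windows, against 26.9% and 24.9% over all genes. On the other strand of the downstream members it stood in 14.8% and 23.3%, so the difference was not limited to the coding strand.

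By product name, the members were spread over gene groups. Of 365 protein kinases with agreeing Col-0 and DMSO windows, 37 moved upstream and 8 downstream. Of 343 transcription factor and DNA-binding protein genes, 40 moved upstream and 19 downstream, and of 126 F-box and ubiquitin genes 19 and 6. Of 131 ribosomal protein genes 7 moved upstream and 4 downstream, of 72 heat shock and chaperone genes 9 and 1, and of 32 splicing factor and snRNP genes 5 and 1. Of 36 photosystem and chlorophyll genes 1 moved upstream and 0 downstream. As shares, 8.40% of ribosomal protein genes and 19.8% of F-box and ubiquitin genes moved, beside 15.1% of all such genes, and no test was made.

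At the limit of 100 bp, 23 genes moved upstream by 100 bp and 16 by 95 bp, the next step of the window scan. Their median 3'PIs were 7.79 and 5.80 after herboxidiene and 12.9 and 9.26 after DMSO. Downstream, 15 genes lay just inside and 12 just outside, with median 3'PIs of 7.13 and 6.89 after herboxidiene and 11.0 and 7.43 after DMSO. NUDT8 and AT5G12340, described above, moved by exactly 100 bp and had the most reads there. Just outside lay NRPB1 (AT4G35800), the largest subunit of Pol II, which moved 95 bp upstream with a 3'PI of 5.41 after herboxidiene and 5.13 after DMSO. AT3G01560, a putative proline-rich receptor-like kinase, moved 95 bp downstream with a 3'PI of 11.6 after herboxidiene and 8.88 after DMSO.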

How the data were processed

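The authors trimmed reads (fastp for pNET-seq, Trimmomatic 0.39 for RNA-seq), mapped them to TAIR10 with HISAT2 2.2.0, kept unique reads with SAMtools, and removed pNET-seq duplicates by molecular identifiers. The deposited gene body and window reads are counts pooled over libraries and not normalised. The 3'PI is the authors' ratio of window density to gene body density, and the deposited tables list only genes past the authors' q-value for a pause, from a Fisher p-value. The deposited TPM values were not printed. The deposited splicing tables give the intronic and exonic counts behind each SS ratio. The PAS was taken as the deposited gene end on the gene's strand, and positions were measured from it. The annotated place of a window came from the TAIR10.1 annotation, whose gene ends need not be the same. Of 9111 genes, 9066 were found in the TAIR10.1 annotation, and 98.8% of 121244 listed introns had GT and AG ends there.

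Members were picked with Python 3.11.15, numpy 2.4.6 and pandas 2.3.3, intervals made with scipy 1.17.1 and figures with matplotlib 3.10.9. The picking step was tested on simulated tables. Organellar genes were left out. SS ratios used a pseudocount of 0.5 for log2 changes. Per direction, named genes were the 8 with the largest smaller window count, the 3 lowest and 3 highest 3'PI ratios over members with 100 or more gene body reads after each treatment, the 2 with fewest and 2 with most introns among those with at least 50 window reads in both, the farthest move, the genes at the limit and any drawn in the paper. Members and lists were chosen with earlier results of these data known. Alternatives changed the read minimum, the distances, the q-value, the neighbours, intron counts and SS ratio settings.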

Additional observations from a re-analysis of the deposited data

How the results depend on the processing

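Each value is from pooled libraries, and values of single libraries were not analysed here. No paired analysis was possible because the tables used here hold no value per library. Of 54 alternative values, 32 stayed close to the main value. Against 587 upstream and 283 downstream members, at least 50 gene body reads left 362 and 185, leaving out genes with a neighbour within 300 bp left 271 and 107, and a move of 150 bp or more left 153 downstream. With at least 10, 20 or 50 reads in every window, chosen after seeing the data, 331, 141 and 36 upstream and 172, 82 and 20 downstream members were left. With at least 20 such reads, the median log2 3'PI ratio was -0.50 upstream and -0.042 downstream. The median intron number was then 5 upstream and 3 downstream, against 3 in held windows. The median log2 change of the SS ratio was 2.25 upstream and 2.59 downstream, against 2.40 in held windows. With at least 50 such reads, the median log2 3'PI ratio was -0.44 upstream and changed sign downstream, to 0.054. The median intron number was then 6 upstream and 2 downstream, against 3 in held windows. The median log2 change of the SS ratio was 2.74 upstream and 2.42 downstream, against 2.65 in held windows. Introns of the longest annotated isoform gave an upstream median of 5. The window minimum and the neighbour filter keep fewer genes by construction, and the cause of the shifts in the medians was not tested. At the median herboxidiene window of 12 or 13 reads, the place of a single window is imprecise.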
